A study of Mus musculus with 12 samples.

Results

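The Myc and Max network was followed here through 10 genes, taken by name from the gene count table of whole mouse kidney: Myc, Mycn, Mycl, Max, Mga, Mnt, Mxd1, Mxd3, Mxd4 and Mxi1. They are 10 of the 54532 genes in the table, and all 10 were among the 24642 genes that passed the cutoff on low counts (an average log2CPM of at least -3, where CPM is the read count scaled to the size of its library). Total RNA was sequenced from the kidneys of 12 mice of strain C57BL/6 in the labels (C57BL/6 J in the study's methods), all 18 days old, in 4 groups of 3. Every mouse carried the RC missense allele of Pkd1, the gene for Polycystin-1, opposite a floxed Pkd1 allele. The 6 noncystic mice had no Cre and are called Pkd1 RC/+. In the 6 cystic mice KspCre, which is active in kidney tubule epithelium, had inactivated the floxed allele, and they are called Pkd1 RC/-. Within each of these, 3 mice had wild-type Pkd2 (Pkd2 +/+), the gene for Polycystin-2, and 3 were homozygous for a CRISPR/Cas9 deletion of the binding motif of the microRNA miR-17 from the Pkd2 3′-UTR (Pkd2 Δ17/Δ17). By their numbers in the labels, mice 19, 20 and 21 were noncystic with wild-type Pkd2, and mice 22, 23 and 24 were noncystic without the motif. Mice 25, 26 and 27 were cystic with wild-type Pkd2, and mice 28, 29 and 30 were cystic without the motif. Because cysts and Cre came together in every mouse, an action of Cre itself and one of Pkd1 loss cannot be told apart.

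Max is the hub of this network. Myc, Mycn and Mycl each pair with Max through a basic helix-loop-helix leucine zipper, bind the E-box CACGTG and mostly activate genes of ribosome production, nucleotide synthesis and growth. Mxd1, Mxd3, Mxd4, Mxi1 (also called Mxd2) and Mnt pair with the same partner at the same sites and recruit Sin3 and histone deacetylases, and Mga pairs with Max inside a Polycomb-type repressor complex. In cystic kidney disease Myc has long been studied as a growth regulator of tubule epithelium, and the host gene of miR-17, Mir17hg, is a known Myc target, so the network stands next to the microRNA whose site was deleted here.

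Sequences are shown first because 2 short motifs tie these genes to each other and to miR-17. An E-box was present within the RefSeq promoter window (250 bases before to 50 bases after the start, GRCm38.p6) of 3 of the 9 members that had an entry, and these windows are printed in the direction of transcription with the E-box in capitals. The Max window lies at chr12:76962234-76962263 on the minus strand, with an E-box that begins 3 bases before the annotated start and runs across it. The Mnt window lies at chr11:74830789-74830818 on the plus strand, with an E-box that begins 123 bases before the start. The Mxd4 window lies at chr5:34187912-34187941 on the minus strand, with an E-box that begins 219 bases before the start.
Max: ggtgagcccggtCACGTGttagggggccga
Mnt: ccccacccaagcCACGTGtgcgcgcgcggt
Mxd4: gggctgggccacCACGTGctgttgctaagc

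CACGTG reads the same on both strands, so 1 search covered both. The motif was in a window of 8.09% of all 27025 genes with promoter entries (7.15% of windows), against 33.3% of the members, 25% of the 28 ribosome biogenesis targets and 30% of the 30 growth and metabolism targets that had entries. In the other lists used below it was in 50% of 4 extended network genes, 12.5% of 16 Myc cofactors and 10% of 10 corepressors. It was in 11.8% of 17 Myc turnover genes, 0 of 8 genes repressed by Myc and 0 of 13 cell cycle genes. The windows of Mycn, Mycl, Mga, Mxd1, Mxd3 and Mxi1 did not hold these letters, and Myc had no entry. A match of letters is a description and not a bound site.

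The mature miR-17-5p (RefSeq, chr14:115043684-115043706, plus strand, GRCm38.p6) is printed with its seed, bases 2 to 8, in capitals. A perfect complement of that seed, GCACTTT, occurred once in the longest annotated 3′-UTR (GENCODE M21, GRCm38) of 4 of the 10 members, and those sites are printed on the gene's strand with the seed complement in capitals. The Mycn site lies at chr12:12936139-12936145 in exon 3 (minus strand), the Mga site at chr2:119969101-119969107 in exon 24, the Mnt site at chr11:74844638-74844644 in exon 6 and the Mxi1 site at chr19:53375081-53375087 in exon 6 (all plus strand), in each case in the last exon.
miR-17-5p: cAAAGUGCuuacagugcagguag
Mycn: tgcaccttagaGCACTTTgaaatacctcat
Mga: ttttgaagaaaGCACTTTtaagggtccttt
Mnt: aacctcccaggGCACTTTattattattatt
Mxi1: cttatgtgcatGCACTTTgggcatcattct

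The same letters were in the longest 3′-UTR of 11.4% of 21699 protein-coding genes, whose 3′-UTRs had a median of 917 bases against 2187.5 bases for the members. Those of Myc, Mycl, Max, Mxd1, Mxd3 and Mxd4 did not hold them. The deletion in these mice was made in Pkd2 and not in any member.

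Library totals ran from 18800307 to 24453033 assigned reads. The sums of 5 proximal tubule marker genes (2003 to 7580 CPM) and 5 thick ascending limb genes (1713 to 3619 CPM) showed kidney tubule in every library, while 5 lymphocyte genes summed to between 1.85 and 6.59 CPM. Pkd2 itself was between 194 and 233 CPM in the 6 Pkd2 +/+ mice and between 271 and 337 CPM in the 6 Pkd2 Δ17/Δ17 mice. A gene count does not read the deletion, so this level is not a check of genotype. The noncystic mice alone differed too, with 194 to 219 CPM against 271 to 286 CPM. For the protein, the study reported no rise with the deletion in noncystic kidneys. Pkd1, whose count does not separate its alleles, lay between 50.4 and 81.6 CPM. The labels give no sex, and Xist divided the mice into 6 high (mice 19, 22, 23, 25, 26 and 28) and 6 low, with 1 or 2 of each in every group. Ddx3y, a gene of the Y chromosome, gave the same division, at 0.392 to 1.42 CPM in the Xist-high mice and 61.6 to 75.6 CPM in the Xist-low mice. The mice are separate animals, and no pair of libraries within a group was identical.

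All members were transcribed in all 12 kidneys, at 69 reads or more. Only a length-corrected level allows genes to be compared, so CPM was divided by the summed exon length of each gene. On this CPM per kb scale Max was the most abundant in noncystic Pkd2 +/+ kidneys at 28.9 ± 1.32 (mean ± SD, n = 3), followed by Mxd4 at 23.5 ± 1.64, Mxi1 at 11.2 ± 1.24, Mnt at 7.76 ± 1.86 and Myc at 5.48 ± 0.677. Mga (3.78 ± 0.341), Mycn (3.03 ± 0.143), Mxd1 (2.83 ± 0.0639), Mxd3 (2.74 ± 0.506) and Mycl (1.51 ± 0.546) came after. Mnt and Myc overlapped between mice in this order, as did Mxd3 with both Mycn and Mxd1, and the other neighbours did not.

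In cystic Pkd2 +/+ kidneys the order on the CPM per kb scale was different. Mxd4 (28 ± 0.851) and Max (26.3 ± 1.48) overlapped at the top, Myc followed at 12.3 ± 1.44, and Mnt (9.92 ± 0.485) and Mxi1 (7.78 ± 0.246) were below it. Mxd3 (5.87 ± 0.242) had passed Mga (4.04 ± 0.290). In cystic Pkd2 Δ17/Δ17 kidneys Mnt (10.2 ± 0.224), Myc (9.82 ± 0.752) and Mxi1 (9.10 ± 0.567) lay close together, and their ranges overlapped from 1 to the next.

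**Figure D1:**
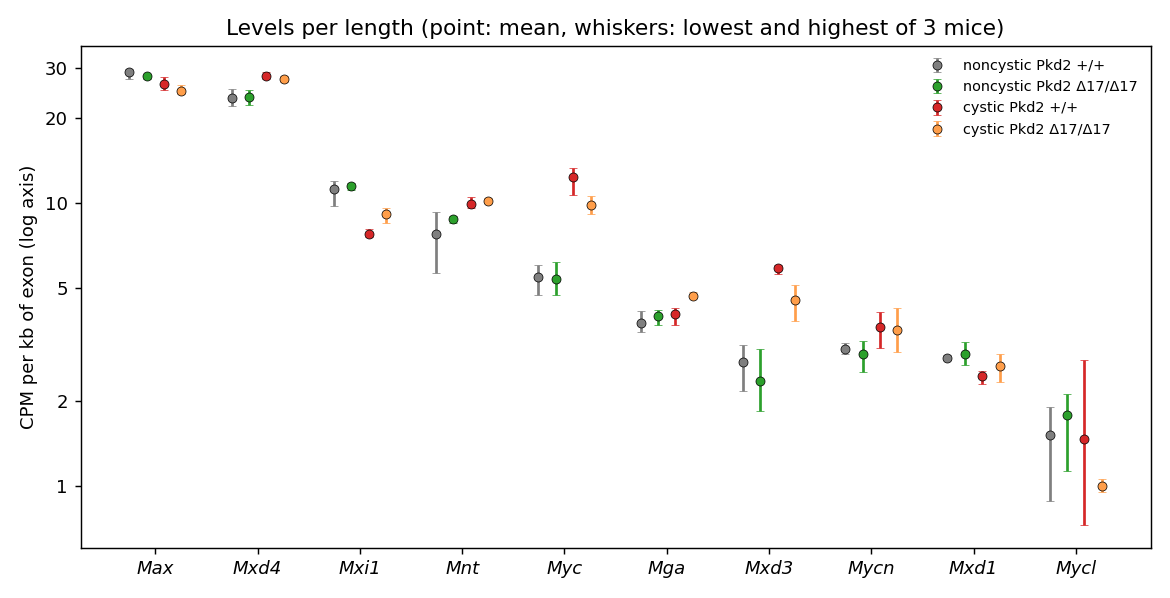
Levels of the 10 members in CPM per kb of exon (log axis), with a point at the mean of each group and whiskers at the lowest and highest of its 3 mice. Max and Mxd4 lie above 20 in every group, and Myc and Mxi1 change places between the noncystic groups and cystic Pkd2 +/+ kidneys.

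The first comparison asked what the network does in cyst-bearing kidneys with wild-type Pkd2. Myc and Mxd3 more than doubled, Mnt and Mxd4 were modestly higher, and Mxi1 was lower. Thus 5 of the 10 members passed an adjusted p of 0.05 (edgeR's quasi-likelihood test, Benjamini-Hochberg over 24642 genes), 4 of them higher and 1 lower. Across all genes tested 31.1% passed, 16.9% higher and 14.2% lower, so cystic change was common throughout the transcriptome. The median log2 fold change of the members was 0.17, against 0.02 for all genes, and the median of its absolute size was 0.26 against 0.47. The members had an average log2CPM of 2.44 or more, while all genes tested reached down to -3. These sizes are thus not compared between genes of like level. In bulk tissue, fewer cells of a type and less RNA per cell cannot be told apart.

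**Figure D2:**
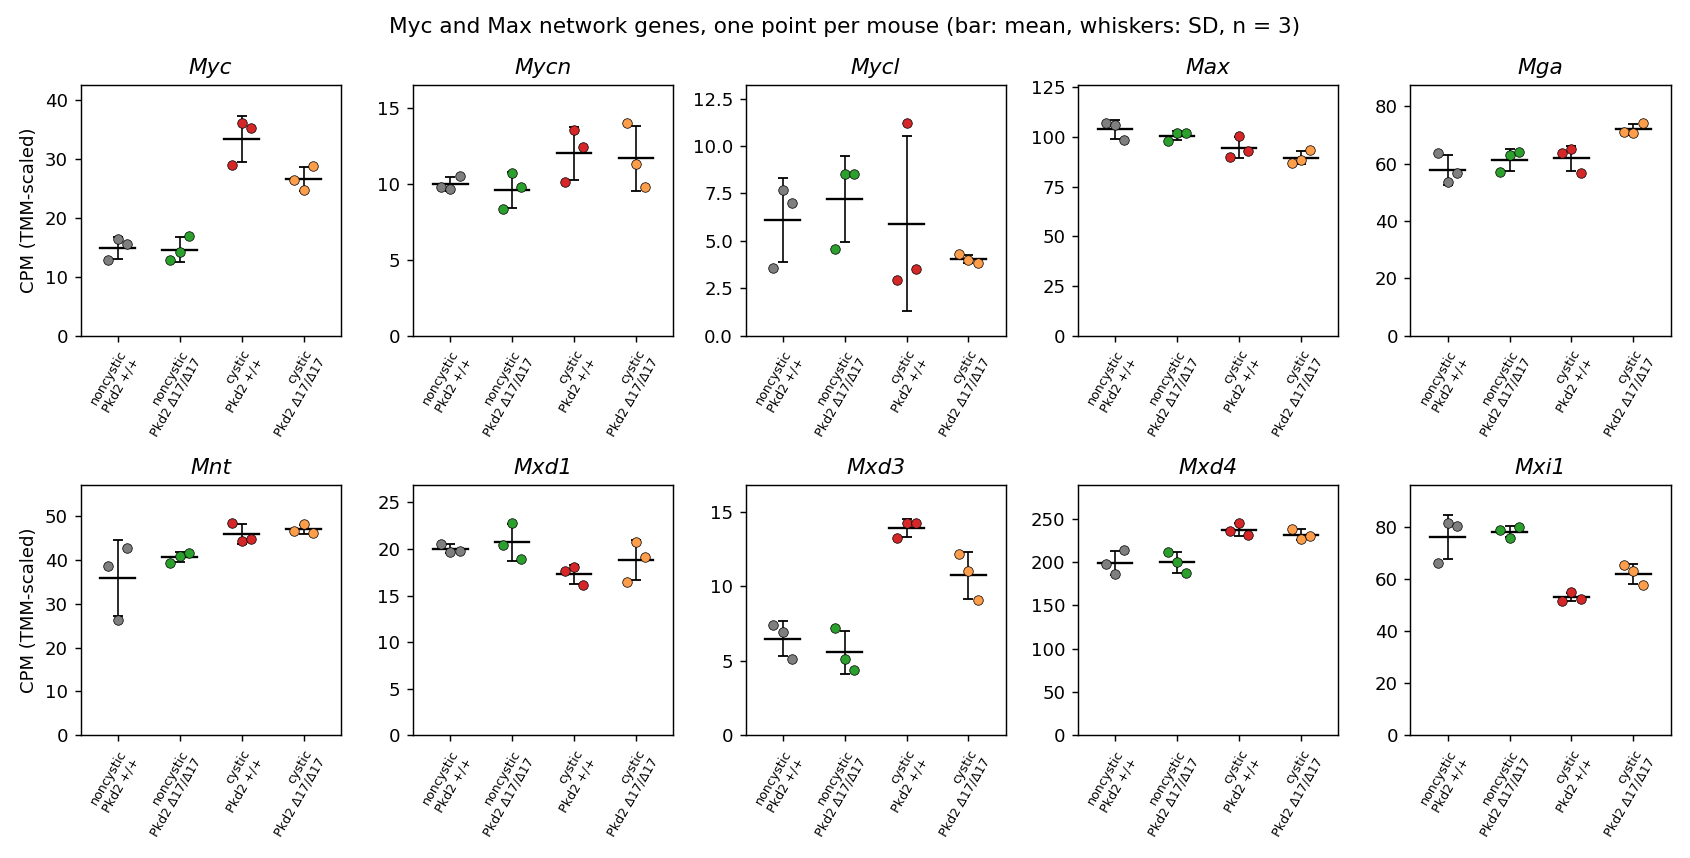
CPM scaled by the trimmed mean of M values (TMM) for each member, with 1 point per mouse, a bar at the group mean and whiskers of 1 SD (n = 3). Myc, Mxd3 and Mxi1 are the members in which cystic Pkd2 +/+ mice, cystic Pkd2 Δ17/Δ17 mice and all noncystic mice form 3 bands without overlap.

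Among the activators, Myc stood at 12.8, 16.4 and 15.5 CPM in the noncystic Pkd2 +/+ mice 19, 20 and 21 and at 12.8, 14.2 and 16.8 CPM in the noncystic Pkd2 Δ17/Δ17 mice 22, 23 and 24. In the cystic Pkd2 +/+ mice 25, 26 and 27 it stood at 28.9, 36.1 and 35.3 CPM, and in the cystic Pkd2 Δ17/Δ17 mice 28, 29 and 30 at 26.4, 24.7 and 28.8 CPM. All 6 cystic kidneys lay above all 6 noncystic ones, and every cystic Pkd2 +/+ kidney lay above every cystic Pkd2 Δ17/Δ17 kidney, although mouse 25 and mouse 30 nearly met. With wild-type Pkd2, Myc rose by 1.17 ± 0.13 (log2 fold change ± SE, 95% interval 0.89 to 1.44, edgeR adjusted p = 2.89e-06).

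Mycn, the family member best known from the developing nephron, did not follow Myc. It stood at 9.81, 9.64 and 10.5 CPM in mice 19 to 21, at 8.34, 10.7 and 9.79 CPM in mice 22 to 24, at 10.1, 13.5 and 12.4 CPM in mice 25 to 27 and at 14.0, 11.3 and 9.76 CPM in mice 28 to 30. The groups overlapped, and the log2 fold change with wild-type Pkd2 was 0.26 ± 0.16 (edgeR adjusted p = 0.238).

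Mycl, the third activator, varied more between mice than any other member did. It stood at 3.58, 7.70 and 7.02 CPM in mice 19 to 21, at 4.58, 8.51 and 8.53 CPM in mice 22 to 24, at 2.94, 11.2 and 3.53 CPM in mice 25 to 27 and at 4.28, 4.01 and 3.85 CPM in mice 28 to 30. Mouse 26 held the highest Mycl level of all 12 and its group mate mouse 25 the lowest. The log2 fold change with wild-type Pkd2 was -0.06 ± 0.41 (edgeR adjusted p = 0.938), and it was -0.91 without mouse 26 (adjusted p = 0.0388) and 0.27 without mouse 25 (adjusted p = 0.655).

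With these changes the make-up of the Myc family shifted toward Myc. Of the summed CPM per kb of Myc, Mycn and Mycl, Myc made up 54.7% ± 0.998 (SD, n = 3) in noncystic Pkd2 +/+ kidneys, 53.5% ± 3.65 in noncystic Pkd2 Δ17/Δ17, 71.1% ± 4.50 in cystic Pkd2 +/+ and 68.4% ± 4.25 in cystic Pkd2 Δ17/Δ17. The highest noncystic mouse was at 56.3% and the lowest cystic mouse at 64.7%. The 3 activators together made up 11.1% ± 1.36 of the network's summed CPM per kb in noncystic Pkd2 +/+ kidneys, 17.1% ± 2.04 in cystic Pkd2 +/+ and 14.7% ± 0.617 in cystic Pkd2 Δ17/Δ17 kidneys.

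Max, the shared partner, changed little. Its level was 107, 106 and 98.4 CPM in mice 19 to 21, 98.1, 102 and 102 CPM in mice 22 to 24, 90.1, 100 and 93.1 CPM in mice 25 to 27 and 87.0, 88.4 and 93.6 CPM in mice 28 to 30. The log2 fold change with wild-type Pkd2 was -0.14 ± 0.07 (edgeR adjusted p = 0.158), and it was 0.02 when library totals replaced the TMM factors.

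Of the repressor partners, Mxd3 had the change closest in size to that of Myc. Mxd3 is the member of its family that is known from dividing cells rather than from differentiated ones. It stood at 7.43, 6.90 and 5.14 CPM in mice 19 to 21, at 7.19, 5.13 and 4.35 CPM in mice 22 to 24, at 13.2, 14.2 and 14.2 CPM in mice 25 to 27 and at 12.2, 11 and 9.04 CPM in mice 28 to 30. It too formed 3 bands without overlap, with all cystic Pkd2 +/+ kidneys on top. With wild-type Pkd2 it rose by 1.10 ± 0.19 (95% interval 0.70 to 1.50, edgeR adjusted p = 0.000209). Exons of Mxd3 overlap those of Prelid1 on the other strand. The strand setting of the counting is not given in the sources used here, so how reads of the shared stretch were counted is not known.

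Mxi1 moved the other way. It stood at 66.4, 81.6 and 80.3 CPM in mice 19 to 21, at 79.0, 75.8 and 80.0 CPM in mice 22 to 24, at 51.8, 55.0 and 52.5 CPM in mice 25 to 27 and at 65.4, 63.0 and 57.8 CPM in mice 28 to 30. All 6 noncystic kidneys lay above all cystic ones, and the cystic Pkd2 +/+ kidneys were the lowest. With wild-type Pkd2 it fell by 0.52 on the log2 scale (SE 0.08, 95% interval -0.70 to -0.34, edgeR adjusted p = 0.000129). An exon of Mxi1 overlaps Gm10197 on the other strand, with the same uncertainty as for Mxd3.

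Mxd4, the most abundant repressor partner per length, stood at 198, 186 and 214 CPM in mice 19 to 21 and at 236, 245 and 231 CPM in mice 25 to 27, and it rose by 0.25 ± 0.08 on the log2 scale (edgeR adjusted p = 0.0173). In mice 22 to 24 it stood at 212, 201 and 188 CPM, and in mice 28 to 30 at 238, 227 and 231 CPM, so all cystic kidneys were above all noncystic ones. The call was lost without mouse 19 (0.25, adjusted p = 0.0506), mouse 20 (0.18, adjusted p = 0.143) or mouse 26 (0.23, adjusted p = 0.0570). Its exons overlap Gm42846 on the other strand.

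Mnt, which unlike the Mxd genes is transcribed in nearly all cells, stood at 38.7, 26.2 and 42.8 CPM in mice 19 to 21 and at 48.5, 44.5 and 44.7 CPM in mice 25 to 27. Mouse 20 was low against all 11 other kidneys, since mice 22 to 24 stood at 39.4, 41.0 and 41.6 CPM and mice 28 to 30 at 46.7, 48.2 and 46.2 CPM. The rise with wild-type Pkd2 was 0.35 ± 0.13 (edgeR adjusted p = 0.0427). It was 0.15 without mouse 20 (adjusted p = 0.247), and the call was also lost without mouse 25 (0.31, adjusted p = 0.107), mouse 26 (0.37, adjusted p = 0.0587) or mouse 27 (0.37, adjusted p = 0.0715).

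The other repressor partners did not pass. Mxd1, known from differentiating epithelium and blood cells, stood at 20.6, 19.7 and 19.8 CPM in mice 19 to 21 and at 17.6, 18.1 and 16.1 CPM in mice 25 to 27, without overlap, with a log2 fold change of -0.21 ± 0.11 (edgeR adjusted p = 0.165). In the Pkd2 Δ17/Δ17 mice it stood at 20.4, 22.8 and 18.9 CPM in noncystic and 16.5, 20.7 and 19.2 CPM in cystic kidneys, which overlapped. Mga stood at 63.7, 53.5 and 56.6 CPM in mice 19 to 21 and at 63.8, 65.1 and 56.8 CPM in mice 25 to 27 (0.10 ± 0.08, edgeR adjusted p = 0.440). Counting all members, 4 were higher and 2 lower in cystic Pkd2 +/+ kidneys without overlap between the groups, which was so for 41.7% of all genes tested (22% higher and 19.7% lower).

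Across the network these changes ran in opposite directions on the repressor side, and the sum of Mxd1, Mxd3, Mxd4, Mxi1 and Mnt went from 48.0 ± 2.99 CPM per kb (SD, n = 3) in noncystic to 54.0 ± 1.13 in cystic Pkd2 +/+ kidneys. The ratio of Myc to Mxi1 in CPM per kb was 0.491 ± 0.0110 in noncystic Pkd2 +/+, 0.468 ± 0.0604 in noncystic Pkd2 Δ17/Δ17, 1.58 ± 0.153 in cystic Pkd2 +/+ and 1.08 ± 0.145 in cystic Pkd2 Δ17/Δ17 kidneys. The 3 cystic Pkd2 +/+ mice lay between 1.40 and 1.69, the 3 cystic Pkd2 Δ17/Δ17 mice between 0.987 and 1.25 and the 6 noncystic mice between 0.407 and 0.528. This ratio was chosen after the levels of both genes had been seen and carries no test.

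Cystic kidneys that lacked the Pkd2 motif were next set against noncystic kidneys that lacked it. Here 3 members passed, with Myc and Mxd3 higher and Mxi1 lower, against 23% of all genes tested (12.8% higher and 10.2% lower). Myc rose by 0.87 ± 0.13 (edgeR adjusted p = 0.000103), Mxd3 rose by 0.95 ± 0.19 (edgeR adjusted p = 0.00138) and Mxi1 fell by 0.33 on the log2 scale (SE 0.08, edgeR adjusted p = 0.00714). The Mxi1 call was lost when library totals replaced the TMM factors (-0.18, adjusted p = 0.0957).

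The other members did not pass in this comparison, Mga and Mxd4 by the least. Mga stood at 56.9, 62.9 and 64.1 CPM in noncystic and 71.2, 70.8 and 74.2 CPM in cystic Pkd2 Δ17/Δ17 kidneys (0.23 ± 0.08, edgeR adjusted p = 0.0549). Mxd4 had a log2 fold change of 0.21 ± 0.08 (adjusted p = 0.0533), Max of -0.17 ± 0.07 (adjusted p = 0.0964), Mycl of -0.83 ± 0.41 (adjusted p = 0.177) and Mnt of 0.21 ± 0.13 (adjusted p = 0.276). Without overlap between the groups, 5 members were higher and 3 lower, against 37.9% of all genes (20.2% higher and 17.7% lower).

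**Figure D3:**
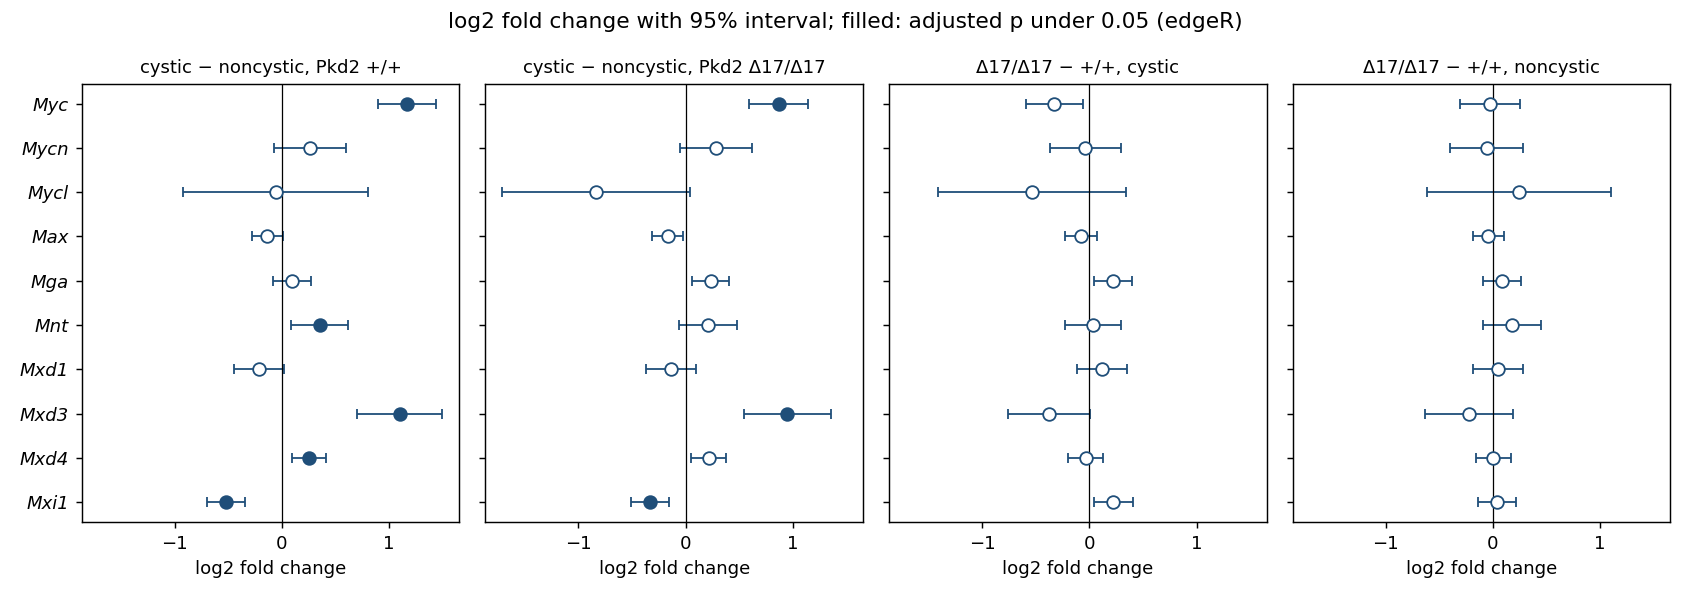
log2 fold changes of the 10 members with 95% intervals in 4 comparisons, where filled points passed an adjusted p of 0.05 in edgeR. Filled points are seen for 5 members with wild-type Pkd2, for 3 with the deleted motif, and for none in either comparison of the deletion itself.

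The deletion of the Pkd2 motif was then compared directly, first in cystic kidneys. No member passed the adjusted threshold in edgeR, where 2.23% of all genes did, and none passed in limma-trend or in the DESeq2 Wald test. At an unadjusted p under 0.05 in edgeR there were 3, against 14.3% of all genes. These were Myc (-0.32 ± 0.12, 95% interval -0.59 to -0.06, edgeR adjusted p = 0.223), Mxi1 (0.23 ± 0.08, 95% interval 0.05 to 0.40, adjusted p = 0.206) and Mga (0.22 ± 0.08, 95% interval 0.04 to 0.39, adjusted p = 0.218). Mxd3 had a log2 fold change of -0.37 ± 0.18 (95% interval -0.76 to 0.01, adjusted p = 0.368).

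Between the cystic groups 2 members were higher (Mga and Mxi1) and 2 lower (Myc and Mxd3) in Pkd2 Δ17/Δ17 without overlap of mice, against 19% of all genes (8.79% higher and 10.2% lower). The difference between the cystic groups amounted to 27.6% of the cystic difference for Myc, 34.4% for Mxd3 and 43.6% for Mxi1, taken on means of log2CPM, and to 36.4%, 42.7% and 39.0% on means of CPM, a scale added after the data were seen. For Mxd4 it was 13.4% on the log2CPM scale, and for Mnt -9.37%, that is, away from the noncystic level. No share was taken for members not called with wild-type Pkd2. Of those, Mga, Max and Mycl also moved away on means of CPM, and Mycn and Mxd1 moved back. Mga was at 57.9 CPM in noncystic Pkd2 +/+, 61.9 in cystic Pkd2 +/+ and 72.0 in cystic Pkd2 Δ17/Δ17 kidneys. The shares and the cystic difference use the same 3 cystic Pkd2 +/+ mice, so they are not independent of each other. The complete order of the mice, noticed after the values were seen, held for Myc and Mxd3 among 3.11% of all genes with cystic Pkd2 +/+ on top, and for Mxi1 among 2.58% with cystic Pkd2 +/+ lowest.

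In noncystic kidneys the deletion left the members within 0.24 of 0 on the log2 scale. None passed the adjusted threshold in edgeR, DESeq2 or limma-trend (0.00406% of all genes did in edgeR), none had an unadjusted p under 0.05 in edgeR (6.31% of all genes) and none was without overlap (10.8%). The log2 fold change was -0.03 ± 0.13 for Myc (95% interval -0.31 to 0.25), -0.22 ± 0.19 for Mxd3 (95% interval -0.63 to 0.19), 0.04 ± 0.08 for Mxi1 (95% interval -0.14 to 0.22) and 0.24 ± 0.41 for Mycl. Whether the deletion acted differently in cystic and noncystic kidneys was tested by the interaction, in which no member passed in edgeR, DESeq2 or limma-trend (0.0122% of all genes in edgeR) and none had an unadjusted p under 0.05 in edgeR (8.33%). For Myc the interaction was -0.30 ± 0.18 with an interval from -0.68 to 0.09, which includes 0.

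Other measures moved together with these genes. The sum of 6 macrophage markers, all 6 of them higher in cystic Pkd2 +/+ kidneys and none at 0 throughout, ran from 121 to 127 CPM in noncystic Pkd2 +/+, 112 to 134 in noncystic Pkd2 Δ17/Δ17, 283 to 392 in cystic Pkd2 +/+ and 215 to 271 in cystic Pkd2 Δ17/Δ17 kidneys, which is the order seen for Myc. All 5 proximal tubule markers fell with cysts, and their sum ran from 5731 to 7580 CPM in the noncystic kidneys, from 2003 to 3062 CPM in cystic kidneys with wild-type Pkd2 and from 2746 to 3958 CPM in those without the motif. Of 5 thick ascending limb markers, 3 fell with cysts and wild-type Pkd2, 1 rose and 1 did not pass. Their sum lay between 2875 and 3619 CPM in noncystic kidneys. In cystic kidneys it lay between 1713 and 2426 CPM with wild-type Pkd2 and between 3318 and 3394 CPM without the motif. The sums of thick ascending limb and of macrophage markers each separated the cystic groups. Between these groups 2 of 5 thick ascending limb and 2 of 5 proximal tubule markers passed as higher. Of the macrophage markers 3 of 6 passed as lower, against 2.23% of all genes called in either direction. With wild-type Pkd2, 2 of 5 collecting duct markers rose and 1 fell, 3 of 5 endothelial markers fell, and of 6 fibroblast markers 3 rose and 1 fell. In the same groups the collecting duct sum ran from 913 to 1312, 1698 to 3267 and 1451 to 2128 CPM, and the endothelial sum from 864 to 1009, 552 to 709 and 661 to 841 CPM. The part of these cell types in the differences of Myc, Mxd3 and Mxi1 was not tested. Within Xist-high mice the cystic difference with wild-type Pkd2 on the log2CPM scale was 1.33 for Myc, 0.88 for Mxd3 and -0.31 for Mxi1, and within Xist-low mice it was 1.14, 1.24 and -0.62, from 1 or 2 mice on each side.

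The 8 pathway lists are described by counts and medians only. Across all genes tested, 31.1% passed with wild-type Pkd2, 23% with the deleted motif and 2.23% between the cystic groups. With the filterByExpr filter, which dropped more genes of low count, 7858 of 17425 passed with wild-type Pkd2. Of the 8 lists, the cell cycle genes gave the most uniform picture. All 16 were higher in cystic Pkd2 +/+ kidneys, with a median log2 fold change of 1.42 and Mcm2 and Mcm5, subunits of the replicative helicase, at 1.17 ± 0.10 and 1.58 ± 0.13 (both edgeR adjusted p = 2.35e-07). All 16 were also higher in cystic Pkd2 Δ17/Δ17 kidneys, with a median of 1.29, and 0 of 16 passed between the cystic groups in edgeR, with a median of -0.16. Their summed level in cystic mice, 922 to 1081 CPM with wild-type Pkd2 and 835 to 1005 CPM without the motif, overlapped. As single genes, Mki67, Ccna2 and Birc5 among the 16 separated the cystic groups, and the other genes of the list overlapped. They were picked after the values were seen. Across all genes tested, 19% were without overlap between these groups, 8.79% higher and 10.2% lower in Pkd2 Δ17/Δ17. Mki67 ran from 149 to 157 CPM with wild-type Pkd2 and from 122 to 141 CPM without the motif. The 5 genes whose profile over the 12 mice was nearest to that of Mxd3, sought after the values of Mxd3 were seen, were Spc24, Cdkn2c, Tacc3, Stmn1 and Hmgb2, at a root mean square distance of 0.0813 to 0.137 on the centred log2 scale, against a median of 0.584 for 13690 genes. Spc24 and Tacc3 are parts of the mitotic kinetochore and spindle.

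**Figure D4:**
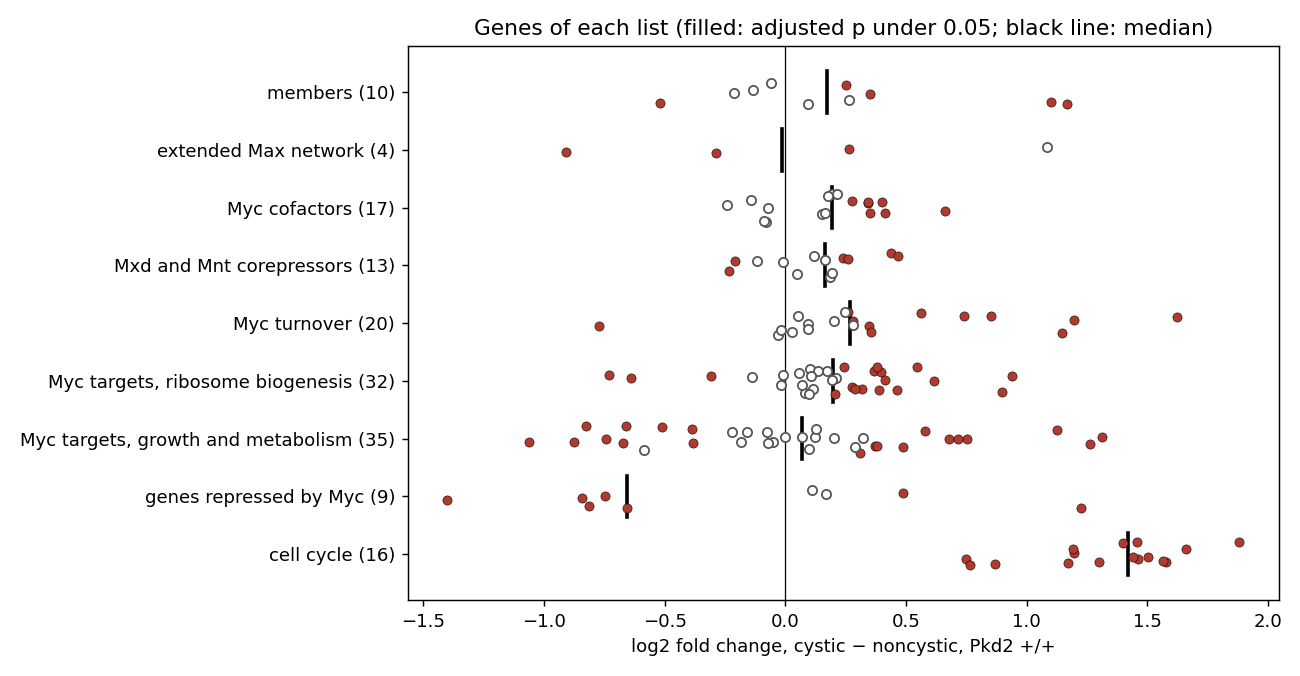
log2 fold changes between cystic and noncystic kidneys with wild-type Pkd2 for the members and 8 lists, with 1 point per gene, filled where edgeR's adjusted p was under 0.05, and a black line at each median; the number tested stands beside each name. The cell cycle genes all lie above 0, while the growth and metabolism targets of Myc spread to both sides.

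Known Myc targets were taken in a pair of lists. Of 32 tested targets in the ribosome biogenesis list, 15 were higher and 3 lower in cystic Pkd2 +/+ kidneys (56.2% called), with a median of 0.20. The list is not purely of that role, since it also holds Pprc1 and Ndufaf4. Rrp1b, a nucleolar processing factor, rose by 0.90 ± 0.10 (edgeR adjusted p = 5.23e-06), and Pprc1, a coactivator of respiratory genes, by 0.94 ± 0.12 (adjusted p = 8.55e-06). Utp20, a factor of small subunit processing, fell by 0.73 (SE 0.08, adjusted p = 4.71e-06), and Ndufaf4, an assembly factor of respiratory complex I, fell by 0.64 (SE 0.11, adjusted p = 0.000177). In cystic Pkd2 Δ17/Δ17 kidneys 11 were higher and 3 lower, and between the cystic groups 0 of 32 passed in edgeR, with a median of -0.10.

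The growth and metabolism targets went in both directions, with 11 of 35 higher and 9 lower and a median of 0.07. Ctps, which makes CTP, rose by 1.26 ± 0.11 (edgeR adjusted p = 3.2e-07), and the G1 kinase Cdk4 rose by 0.68 ± 0.08 (adjusted p = 4.08e-06). Shmt1, an enzyme of one-carbon metabolism that is abundant in kidney, fell by 0.87 (SE 0.08, adjusted p = 5.33e-07), and the mitochondrial chaperone Hspd1 fell by 0.67 (SE 0.08, adjusted p = 6.37e-06). Without mouse 26 the number higher was 7. Shmt1 was the gene of this list that passed between the cystic groups, 0.46 ± 0.08 higher in Pkd2 Δ17/Δ17 (adjusted p = 0.00828).

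Mir17hg, the host transcript of miR-17 and a member of that list, did not follow Myc. It stood at 10.5, 8.73 and 6.82 CPM in mice 19 to 21, at 6.76, 9.49 and 10.1 CPM in mice 22 to 24, at 9.56, 6.22 and 8.95 CPM in mice 25 to 27 and at 9.66, 9.39 and 10.7 CPM in mice 28 to 30. The log2 fold change was -0.07 ± 0.20 with wild-type Pkd2 (95% interval -0.50 to 0.35, edgeR adjusted p = 0.827) and 0.18 ± 0.20 with the deleted motif (adjusted p = 0.602). A gene count of the host does not measure the mature microRNA.

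Of 9 genes that Myc is known to repress, 5 were lower, 2 were higher and 2 did not pass, with a median of -0.65. Ndrg2, a gene of differentiated epithelium, fell by 1.40 (SE 0.08, edgeR adjusted p = 1.25e-08) and the ferritin heavy chain Fth1 by 0.81 (SE 0.08, adjusted p = 1.53e-06). The cell cycle inhibitors Cdkn2b and Cdkn1a, by contrast, rose by 1.23 ± 0.33 (adjusted p = 0.00803) and 0.49 ± 0.16 (adjusted p = 0.0240). Leaving out mouse 20, 21, 26 or 27 left 1 of this pair called. Ndrg2 was 0.56 ± 0.08 higher in cystic Pkd2 Δ17/Δ17 than in cystic Pkd2 +/+ kidneys (adjusted p = 0.00295), where the median of the list was -0.03.

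Among cofactors of Myc 7 of 17 were higher and 0 lower in cystic Pkd2 +/+ kidneys (41.2% called, median 0.19). They were led by the chromatin remodelling subunits Actl6a (0.66 ± 0.09, edgeR adjusted p = 2.31e-05) and Smarcb1 (0.41 ± 0.07, adjusted p = 0.000389). Of all genes tested 31.1% passed. Of those kept by the filterByExpr filter, which dropped more genes of low count, 7858 of 17425 passed. Of 13 corepressor genes used by Mxd and Mnt, 4 were higher and 2 lower (46.2% called). Hdac1, a histone deacetylase, rose (0.44 ± 0.07, adjusted p = 0.000172), and Sap18 (-0.23 ± 0.08, adjusted p = 0.0316) and Suds3 (-0.21 ± 0.07, adjusted p = 0.0321), which are subunits of the Sin3 complex, fell. The number of corepressors higher was 2 without mouse 19 or 26, and the number lower was 1 without mouse 20, 21, 25 or 27 and 0 without mouse 26.

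Of 20 genes that set Myc protein stability, 10 were higher, 1 was lower and 9 did not pass (55% called, against 31.1% of all genes). With the filterByExpr filter 7858 of 17425 genes passed. Plk1, a mitotic kinase that also stabilises Myc proteins, rose by 1.62 ± 0.20 (edgeR adjusted p = 8.88e-06) and the deubiquitinase Usp22 by 0.56 ± 0.07 (adjusted p = 8.96e-06). Ppp2r5a, a subunit of the phosphatase PP2A, which dephosphorylates Myc, fell by 0.77 (SE 0.09, adjusted p = 7.96e-06). Its fall in cystic Pkd2 Δ17/Δ17 kidneys was 0.29 on the log2 scale (SE 0.09, adjusted p = 0.0310), and between the cystic groups the difference was 0.36 ± 0.09 (adjusted p = 0.0570). Myc protein was not measured in this table. By immunoblot, the study reported less c-Myc protein in cystic Pkd2 Δ17/Δ17 than in cystic Pkd2 +/+ kidneys of the same age. The Myc transcript had a log2 fold change of -0.32 ± 0.12 between these groups and did not pass (edgeR adjusted p = 0.223).

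The extended network joins these genes through Mlx, a Max-like partner that pairs with some Mxd proteins and with the glucose-responsive factors Mlxip and Mlxipl. Mlxipl, also known as ChREBP, was at 73.5, 58.2 and 66.5 CPM in mice 19 to 21, at 74.7, 119 and 87.2 CPM in mice 22 to 24, at 52.1, 19.6 and 33.5 CPM in mice 25 to 27 and at 45.1, 43.5 and 42.2 CPM in mice 28 to 30. All cystic kidneys lay below all noncystic ones, with a fall of 0.91 (SE 0.24, edgeR adjusted p = 0.00702) with wild-type Pkd2 and of 1.10 (SE 0.24, adjusted p = 0.00228) with the deleted motif. Proximal tubule markers fell in the same kidneys, and their part in this fall was not tested.

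Mlx fell by 0.29 on the log2 scale with wild-type Pkd2 (SE 0.10, edgeR adjusted p = 0.0335) and Mlxip rose by 0.26 ± 0.09 (adjusted p = 0.0401). With the deleted motif the log2 fold changes were -0.14 ± 0.10 for Mlx and 0.00 ± 0.09 for Mlxip, and neither passed. Pvt1, the long noncoding neighbour of Myc, lay between 0.305 and 2.54 CPM, with a log2 fold change of 1.08 ± 0.42 (adjusted p = 0.0633), and Mycs was listed at 0 in all mice. The number of this list higher, 1, became 0 without mouse 19, 21, 26 or 27, and the number lower, 2, became 1 without mouse 19, 20, 26 or 27.

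Myc was also set beside genes with a like profile. The 5 genes nearest to Myc over the 12 mice were Lasp1, Nptxr, Tgfbr2, Pdlim7 and Emp2, at a root mean square distance of 0.102 to 0.119 on the centred log2 scale, where the median of 13690 genes was 0.547. Lasp1 and Pdlim7 encode LIM domain proteins of the actin cytoskeleton, and Tgfbr2 is a receptor of TGF-beta. All 5 rose with cysts and wild-type Pkd2, Tgfbr2 by 1.27 on the log2 scale (edgeR adjusted p = 2.8e-08). Between the cystic groups Tgfbr2 passed (-0.39, edgeR adjusted p = 0.0241), while the other 4 did not.

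The 5 genes nearest to Mycl, sought after its spread was seen, included Fmo5, Itga2, Vtcn1 and Rnf183, at a distance of 0.209 to 0.354 against a median of 0.641. Because some of these are known from urothelium, the lining of the renal pelvis, a list of 7 urothelial genes (Upk1a, Upk1b, Upk2, Upk3a, Upk3b, Krt5 and Trp63) was added at that point. Their summed level was 68.0, 175 and 103 CPM in mice 19 to 21, 85.7, 137 and 105 CPM in mice 22 to 24, 22.2, 150 and 62.6 CPM in mice 25 to 27 and 90.0, 63.8 and 57.0 CPM in mice 28 to 30. Mouse 26, highest in Mycl, was second highest in this sum, and mouse 25 was lowest in both. None of the 7 passed in any of the comparisons in edgeR, and none was at 0 in all mice. The part of renal pelvis in the spread of Mycl was not tested.

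**Figure D5:**
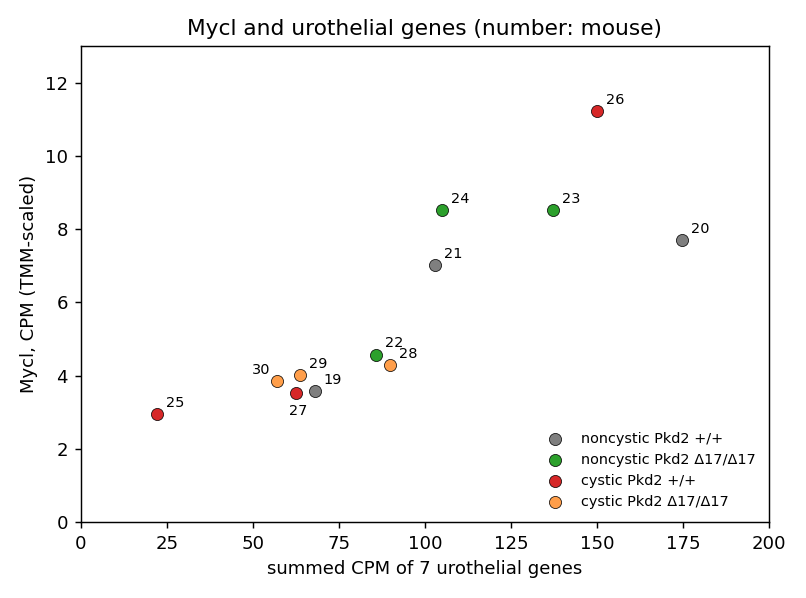
Mycl (CPM, TMM-scaled) against the summed CPM of 7 urothelial genes, with 1 point per mouse, its number and its group colour. Mouse 25 sits lowest on both axes and mouse 26 highest in Mycl, although both are cystic Pkd2 +/+.

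When library totals replaced the TMM factors, the median log2 fold change of all genes between cystic and noncystic kidneys moved up by 0.16 with wild-type Pkd2 and by 0.15 with the deleted motif, and the share of calls that were higher was 71.7% instead of 54.4% with wild-type Pkd2. In both cystic comparisons the directions of Myc, Mxd3 and Mxi1 were the same under every scaling tried. Mga (0.25, edgeR adjusted p = 0.0348) and Mycn (0.42, adjusted p = 0.0499) passed with library totals and wild-type Pkd2, and the changes of Max, Mga and Mxd4 were of about the size of the shift itself.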

How the data were processed

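Whole kidney RNA from 12 mice was sequenced. Per the labels and the study's methods, the authors trimmed reads with Trim Galore 0.6.3, aligned them with STAR 2.5.3a to GRCm38 with Ensembl annotation and deposited raw counts per gene, with replicates kept apart; the strand column is not given in the sources used here. Groups were taken from the sample labels. The counts were fitted over all 4 groups with edgeR 4.0.16 in R 4.3.3 (TMM factors, quasi-likelihood test, Benjamini-Hochberg adjustment, threshold 0.05), after dropping genes whose average log2CPM was under -3, the cutoff the study used, which left 24642 of 54532; SE is the absolute log2 fold change divided by the square root of F. The study's own test, limma-trend (limma 3.58.1), and DESeq2 1.42.0 were alternatives. The scripts were tested on simulated data. Levels per length used the union of exons in GENCODE M21. The members and lists were chosen with earlier results of these data known. Named were all members, the extended network, up to 2 genes with the smallest adjusted p in each direction per list, Mir17hg, Pkd2 and the 5 genes nearest to Myc by profile among genes of average log2CPM 1 or more. The genes nearest to Mycl and Mxd3, the urothelial list, Shmt1 and Ndrg2 between the cystic groups and the 3-band order were chosen after values were seen. So were Mki67, Ccna2 and Birc5. Depth is given in the report as the range of library totals. Counts of 69 to 6100 reads stand behind each member's value in a mouse. Rows without a gene symbol held 0.0225% of reads. Promoter and microRNA sequences are from RefSeq. Some genes that these rules would name are not reported here.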

Additional observations from a re-analysis of the deposited data

How the results depend on the processing

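No paired analysis was possible because the groups share no mouse numbers. The cystic calls of Myc and Mxd3 held under every alternative run, with either Pkd2 allele, as did that of Mxi1 with wild-type Pkd2. The members called with wild-type Pkd2, 5, became 3 with only the compared groups fitted, and leaving out each mouse gave 3 to 5. With the deleted motif the count of 3 became 5 with library totals, the DESeq2 Wald test, Xist as a covariate or only the compared groups, and 6 with the filterByExpr filter, and stayed at 3 when each mouse was left out. The members added with the deleted motif were Mycl, Max, Mga, Mnt or Mxd4, depending on the run. Mycl passed without a filter (-0.83, edgeR adjusted p = 0.000944) and with only the compared groups (-0.83, adjusted p = 0.0273). The counts of 0 for the deletion and the interaction were 0 throughout. With wild-type Pkd2, the log2 fold change of Mycl turned to 0.10 with library totals and 0.0052 with Xist (-0.91 to 0.27 over mice left out), and Max to 0.023 with library totals in edgeR and limma-trend. Mnt lost its call with DESeq2 size factors (adjusted p = 0.0614), Xist (0.0766) and only the compared groups (0.113), and Mxd4 with the last (0.0587). With the deleted motif Mxd1 turned to 0.011 with library totals in edgeR and 0.010 in limma-trend. With Xist, the deletion in noncystic kidneys gave 0.038 for Myc and -0.017 for Mxd4, and the interaction of Mxd4 was 0.0022. Leaving out mice also turned uncalled values, over -0.19 to 0.076 for Mycn and -0.86 to 0.32 for Mycl with the deletion in cystic kidneys, and in noncystic kidneys over -0.14 to 0.046 for Myc, -0.14 to 0.021 for Mycn, -0.030 to 0.47 for Mycl, -0.012 to 0.32 for Mnt, -0.029 to 0.11 for Mxd1, -0.053 to 0.055 for Mxd4 and -0.049 to 0.084 for Mxi1. For the interaction these ranges were -0.13 to 0.13 for Mycn, -1.10 to 0.083 for Mycl, -0.066 to 0.013 for Max, -0.29 to 0.048 for Mnt, -0.0016 to 0.16 for Mxd1, -0.30 to 0.094 for Mxd3 and -0.088 to 0.020 for Mxd4. The cause was not tested.

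List counts with wild-type Pkd2 also depended on scaling. With library totals, in edgeR and limma-trend, the number higher was 12 cofactors, 8 corepressors and 23 ribosome biogenesis targets, the number of corepressors lower was 0, and the extended network had 2 higher and 1 lower. Growth and metabolism targets higher were 17 in limma-trend. The extended network had 0 higher with DESeq2 size factors or Xist, and 2 higher and 1 lower without a filter. Corepressors lower were 1 without a filter and 0 with Xist. Over mice left out, the extended network ranged from 0 to 1 higher and 1 to 2 lower, corepressors from 2 to 4 higher and 0 to 2 lower, cofactors from 0 to 1 lower (1 without mouse 21), growth and metabolism targets from 7 to 13 higher and repressed genes from 1 to 2 higher. With the longest transcript as length, CPM per kb in noncystic Pkd2 +/+ kidneys was 6.37 for Myc, 3.74 for Mycn, 53.5 for Max, 4.16 for Mga, 4.30 for Mxd1, 3.72 for Mxd3, 43.1 for Mxd4 and 15.1 for Mxi1.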
